A study of Mus musculus with 14 samples.

Results

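RNA levels in shDIS3L2 embryoid bodies (EBs, the aggregates in which mouse embryonic stem cells, ESCs, differentiate) were compared with those in shLacZ EBs at days 2 and 4 (d2 and d4), when Dis3l2 itself was low. The comparison used 4 of the 14 libraries of the series, chosen by line and day alone: shLacZ d2, shLacZ d4, shDIS3L2 d2 and shDIS3L2 d4. The shDIS3L2 cells carry a stable short hairpin RNA against Dis3l2, and the shLacZ control cells carry one against LacZ, a bacterial gene that mouse cells lack. Both lines were kept as ESCs in LIF with the inhibitor pair 2i. They were differentiated by withdrawing these, aggregating the cells in hanging drops with serum and, after d2, holding the EBs in suspension. The study describes its stable knockdown in an Osr1-GFP reporter ESC line, and the labels do not name the ESC line of these libraries. Each group was 1 library of 1 line, with no replicate culture and no second hairpin, so the 2 days are the only repeat of the line difference.

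DIS3L2 is a cytoplasmic 3′-to-5′ exoribonuclease that degrades RNAs carrying a tail of uridines, which the terminal uridylyltransferases TUT4 and TUT7 add. Its known substrates include let-7 precursors and structured noncoding RNAs such as the RNA of the signal recognition particle. EBs leave naive pluripotency for a formative and then primed epiblast state, from which primitive streak cells, the source of mesoderm and definitive endoderm, arise, while visceral endoderm, an extraembryonic tissue, forms mainly at the surface.

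The libraries held 26382579 (shLacZ d2), 21400973 (shDIS3L2 d2), 7178712 (shLacZ d4) and 20695661 (shDIS3L2 d4) reads on genes. Depth therefore differed 1.23-fold at d2 and 2.88-fold at d4. Levels are given in CPM, read counts scaled to a common library total. A fold at 1 day compares 1 library with 1 library, has no test, and is given with a 95% interval of the ratio of reads (exact Clopper-Pearson) that covers counting error only. Over both days a quasi-likelihood test (edgeR) with day as a block was used, which treats the days as the repeats and has 1 residual degree of freedom. The median log2 fold (shDIS3L2 over shLacZ) of all genes compared, those with at least 1 CPM in a library of that day, was -0.07 at d2 (13171 genes) and -0.01 at d4 (13010 genes).

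Dis3l2 was lower in shDIS3L2 on both days. At d2 shLacZ stood at 15.8 CPM (417 counts) and shDIS3L2 at 4.44 CPM (95 counts), a level 3.56-fold lower (interval 2.84 to 4.50). At d4 the levels were 22.0 CPM (158 counts) and 7.05 CPM (146 counts), 3.12-fold lower (2.48 to 3.93). In edgeR its log2 fold over both days was -1.71 (SE 0.20, adjusted p = 0.0253). Its level in shDIS3L2 was 13.7% of that in shLacZ in ESCs (d0), 28.1% at d2, 32.1% at d4 and 55.2% at d6, and it had reached 97.1% by d8 and was 75.4% at d12.

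The promoters of 6 genes on which the results below turn are shown as the 250 bases before the RefSeq start (RefSeq, GRCm38.p6), 5′ to 3′ on the gene's strand. Usp26 had the largest fold of the genes that rose, the 3 Xlr3 genes were lower together at neighbouring places on the X chromosome, Bnip3 rose on both days, and Mesp1 was higher at d4 and near absent at d2. Capitals mark a CCAAT box (CCAAT, or ATTGG on the other strand) in Usp26 and the Xlr3 genes, the hypoxia response core ACGTG (or CACGT) in Bnip3, and the LEF and TCF site CTTTGAA (or TTCAAAG) in Mesp1.
Usp26, chrX:51801234-51801483 (- strand): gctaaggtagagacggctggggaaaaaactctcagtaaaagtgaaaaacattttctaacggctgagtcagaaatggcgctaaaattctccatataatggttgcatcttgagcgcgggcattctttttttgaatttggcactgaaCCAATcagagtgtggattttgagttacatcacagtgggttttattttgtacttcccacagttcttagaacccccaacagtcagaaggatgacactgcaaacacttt
Xlr3a, chrX:73097096-73097345 (- strand): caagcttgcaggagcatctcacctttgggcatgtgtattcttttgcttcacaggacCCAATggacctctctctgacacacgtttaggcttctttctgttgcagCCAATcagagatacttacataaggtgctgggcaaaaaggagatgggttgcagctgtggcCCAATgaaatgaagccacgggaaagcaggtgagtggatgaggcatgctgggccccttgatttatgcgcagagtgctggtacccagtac
Xlr3b, chrX:73191929-73192178 (+ strand): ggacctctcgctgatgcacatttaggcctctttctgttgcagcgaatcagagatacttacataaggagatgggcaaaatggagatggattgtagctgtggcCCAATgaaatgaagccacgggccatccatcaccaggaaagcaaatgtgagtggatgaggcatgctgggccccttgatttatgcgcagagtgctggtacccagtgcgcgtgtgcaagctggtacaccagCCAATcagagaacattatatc
Xlr3c, chrX:73265391-73265640 (- strand): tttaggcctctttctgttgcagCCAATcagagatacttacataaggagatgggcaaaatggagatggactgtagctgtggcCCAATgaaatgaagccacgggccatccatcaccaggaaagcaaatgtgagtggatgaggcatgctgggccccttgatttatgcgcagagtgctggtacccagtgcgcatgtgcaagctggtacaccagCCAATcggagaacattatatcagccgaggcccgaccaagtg
Bnip3, chr7:138909507-138909756 (- strand): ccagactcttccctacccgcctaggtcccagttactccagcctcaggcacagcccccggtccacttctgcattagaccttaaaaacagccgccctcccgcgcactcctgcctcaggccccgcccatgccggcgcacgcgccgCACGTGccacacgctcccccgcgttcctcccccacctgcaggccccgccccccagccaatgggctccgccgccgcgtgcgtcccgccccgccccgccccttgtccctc
Mesp1, chr7:79793591-79793840 (- strand): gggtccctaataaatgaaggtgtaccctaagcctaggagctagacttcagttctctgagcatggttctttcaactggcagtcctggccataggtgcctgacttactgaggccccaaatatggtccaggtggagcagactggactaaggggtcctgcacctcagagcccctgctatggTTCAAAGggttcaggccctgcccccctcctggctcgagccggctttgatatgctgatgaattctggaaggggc
Searched on both strands, these windows held 1 CCAAT match in Usp26, 3 in Xlr3a, 2 in Xlr3b and 3 in Xlr3c, and 33.9% of the 32851 RefSeq promoters of this length held at least 1. The ACGTG core matched at 2 overlapping places in Bnip3, 1 on each strand, and was found in 16.6% of all promoters. CTTTGAA matched once in Mesp1 and was found in 4.46% of all promoters. The Xlr3b and Xlr3c windows, extended 50 bases past the start, were identical at 91.1% of 280 bases laid side by side without gaps. Xlr3a shares long stretches with both. At its best offset without gaps it was identical to Xlr3b at 54.3% of 256 bases and to Xlr3c at 57.6% of 236 bases. A match describes these letters and not a bound site.

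In edgeR, 5 of 17820 genes were higher in shDIS3L2 over d2 and d4 (0.0281% of genes tested) and 14 were lower (0.0786%) at an adjusted p under 0.05. Of these, Uqcrh-ps2, Xlr3b, Rhob, Mir6236, Exoc3l, Gm15564, Cox6a1 and Upp1 lie outside the lists and the rule for named genes and were chosen after their values were seen. At an unadjusted p under 0.05, 694 genes were higher and 989 lower. DESeq2 called 5 genes higher and 20 lower of 16934 tested, and 16 of the 19 edgeR calls were among them. Without the day block, or with the d0 pair added, edgeR called no gene.

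Usp26, an X-linked gene for a deubiquitinating enzyme known mainly from testis, had the smallest adjusted p among the genes that rose. At d2 the shLacZ level was 4.28 CPM (113 counts) and the shDIS3L2 level 32.8 CPM (701 counts), 7.65-fold higher (6.26 to 9.41). At d4 its level was lower in both lines, at 0.418 CPM (3 counts) and 4.45 CPM (92 counts), 10.6-fold apart with a wide interval (3.53 to 52.5). The edgeR log2 fold was 3.04 (SE 0.26, adjusted p = 0.00395). Both shDIS3L2 libraries lay above the shLacZ library of their day, and the shLacZ level of d2 was close to the shDIS3L2 level of d4. In ESCs the levels were 0.0251 CPM and 0.264 CPM, and from d6 on no library passed 0.595 CPM, so the gene was counted mainly at d2.

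The other genes that rose changed less. Upp1, which encodes uridine phosphorylase, an enzyme that splits uridine into uracil and ribose phosphate, stood at 119 and 257 CPM at d2 and 166 and 290 CPM at d4 (shLacZ first), 2.15-fold and 1.74-fold higher (edgeR log2 fold 0.98, SE 0.12, adjusted p = 0.0253). Bnip3, a mitochondrial protein of mitophagy induced by low oxygen, stood at 48.9 and 85.6 CPM at d2 and 17.97 and 31.99 CPM at d4, 1.75-fold and 1.78-fold higher (edgeR log2 fold 0.85, SE 0.13, adjusted p = 0.0499, and 0.0629 with library totals in place of TMM factors). Cox6a1, a subunit of cytochrome c oxidase, stood at 71.7 and 123 CPM at d2 and 59.5 and 98.4 CPM at d4, 1.72-fold and 1.66-fold higher (edgeR log2 fold 0.78, SE 0.11, adjusted p = 0.0434). For Bnip3 and Cox6a1 the change between d2 and d4 within shLacZ was in the same direction as within shDIS3L2, and the folds of the 2 days differed little. Upp1 and Bnip3 were lower in shDIS3L2 from d6 to d12, with log2 folds of -0.77 to -1.28 and -0.20 to -0.81. Aplnr, the apelin receptor of nascent mesoderm, had 2 counts and 0 counts at d2, so its call rests on d4, where it stood at 57.1 CPM (410 counts) and 170 CPM (3522 counts), 2.98-fold higher (2.69 to 3.31). Its edgeR log2 fold was 1.53 (SE 0.23, adjusted p = 0.0499), whereas DESeq2 gave -0.07.

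**Figure D1:**
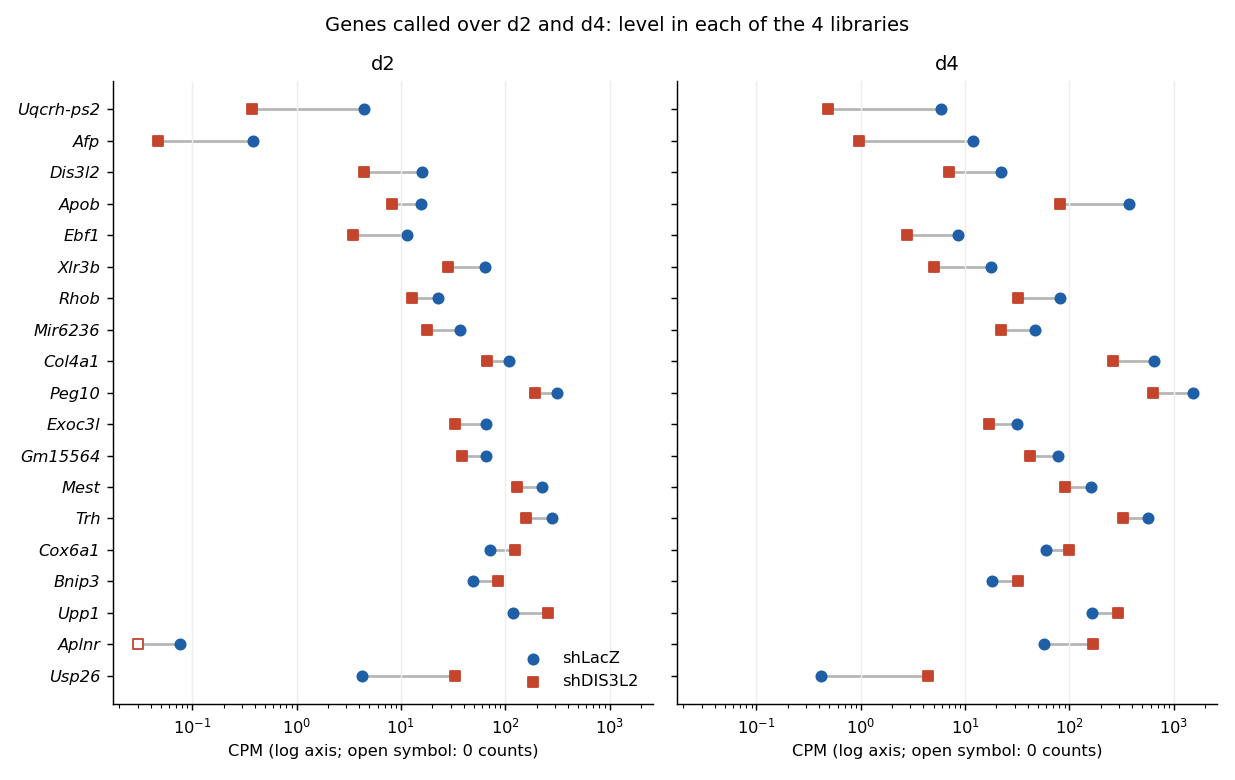
Levels in CPM (log axis) of the genes called by edgeR over d2 and d4, with 1 point per library of shLacZ and shDIS3L2 on each day. Usp26 stood 7.65-fold higher at d2 and 10.6-fold higher at d4, and Uqcrh-ps2 11.9-fold and 12.1-fold lower.

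Among the 14 genes that fell, 3 are products of visceral and parietal endoderm. Afp, alpha-fetoprotein, had 10 counts (shLacZ) and 1 count (shDIS3L2) at d2 (8.11-fold lower, 1.15 to 352), and 85 and 20 counts at d4, which are 11.8 and 0.966 CPM (12.2-fold lower, 7.46 to 21.1). Apob, the structural protein of lipoprotein particles that visceral endoderm secretes, stood at 15.7 and 8.18 CPM at d2 and 371 and 81.2 CPM at d4, 1.92-fold and 4.57-fold lower. Col4a1, a basement membrane collagen, stood at 109 and 66.9 CPM at d2 and 641 and 262 CPM at d4, 1.63-fold and 2.44-fold lower. Their edgeR log2 folds were -3.52, -1.64 and -0.97 (adjusted p = 0.0349, 0.0434 and 0.0434), and DESeq2 did not call Apob (adjusted p = 0.932). All 3 stood higher at d4 than at d2 in both lines, and each stayed lower in shDIS3L2 on every later day to d12.

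Peg10 and Mest, both imprinted and expressed from the father's copy, also fell. Peg10, a retrotransposon-derived gene needed in the placenta, stood at 314 and 194 CPM at d2 and 1526 and 634 CPM at d4, 1.62-fold and 2.41-fold lower (edgeR log2 fold -0.96, SE 0.14, adjusted p = 0.0434). Mest stood at 226 and 129 CPM at d2 and 160 and 91.5 CPM at d4, 1.75-fold lower on each day (edgeR log2 fold -0.78, SE 0.10, adjusted p = 0.0349). At d6 both were higher in shDIS3L2, Mest by 1.59 on the log2 scale and Peg10 by 0.45. Trh, which encodes thyrotropin-releasing hormone and is on the list of endoderm factors, stood at 279 and 160 CPM at d2 and 561 and 325 CPM at d4, 1.75-fold and 1.73-fold lower (edgeR log2 fold -0.77, SE 0.10, adjusted p = 0.0349). Ebf1, a transcription factor of B cell and mesenchymal lineages, stood at 11.3 and 3.50 CPM at d2 and 8.50 and 2.80 CPM at d4, 3.23-fold and 3.03-fold lower (edgeR adjusted p = 0.0499; DESeq2 0.145). Rhob, a small GTPase, stood at 22.5 and 12.8 CPM at d2 and 81.3 and 32.3 CPM at d4, 1.76-fold and 2.52-fold lower (edgeR adjusted p = 0.0499).

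The largest edgeR fold among the genes that fell, close to that of Afp, belonged to Uqcrh-ps2, annotated as a pseudogene of a respiratory chain subunit. It had 117 and 8 counts at d2 and 42 and 10 counts at d4, 11.9-fold lower (5.83 to 28.1) and 12.1-fold lower (5.98 to 27.1), with an edgeR log2 fold of -3.54 (SE 0.39, adjusted p = 0.0236). On each of the other 5 days it was slightly higher in shDIS3L2, with log2 folds of 0.15 to 0.67, and reads of its parent gene cannot be told apart from its own where the sequences match. Mir6236 stood at 37.1 and 17.8 CPM at d2 and 46.7 and 22.1 CPM at d4, and Gm15564 at 65.7 and 38.1 CPM and 78.0 and 42.0 CPM. In ESCs both lay the other way, at 71.0 and 321 CPM and at 97.0 and 683 CPM. Exoc3l, related to exocyst subunits, stood at 65.8 and 33.0 CPM at d2 and 31.2 and 17.1 CPM at d4 (edgeR log2 fold -0.91, adjusted p = 0.0499).

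Counted by fold on each day, 4 genes were at least 2-fold higher on both days with an interval excluding 1 (0.0323% of the 12398 genes compared on both), and 23 were lower (0.186%). These classes were defined by their folds, which are therefore given without a test. The 4 that were higher were Usp26, Pkd1l1, Kcnc2 and Catsperg1. Pkd1l1, a polycystin-like membrane protein of the left-right organiser, had 16 and 27 counts at d2 and 28 and 250 counts at d4 (0.607 and 1.26 CPM, then 3.90 and 12.1 CPM), 2.08-fold (1.08 to 4.13) and 3.10-fold (2.09 to 4.76) higher. Kcnc2, a potassium channel, and Catsperg1, a subunit of the sperm calcium channel, had at most 82 counts in any of the 4 libraries and were named after their values were seen.

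Of the 23 that were lower, 6 lie in 1 cluster on the X chromosome. Xlr3a, Xlr3b, Xlr3c, Xlr4b, Xlr5b and Gm14685 belong to a cluster of X-linked lymphocyte-regulated genes, of which Xlr3b, Xlr4b and Xlr4c are known in mouse as imprinted. Xlr3b had the highest level, 63.6 and 28.4 CPM at d2 and 17.7 and 5.07 CPM at d4, 2.24-fold and 3.49-fold lower (edgeR log2 fold -1.38, SE 0.18, adjusted p = 0.0349). Xlr3a stood at 19.3 and 8.50 CPM at d2 and 6.55 and 0.628 CPM (47 and 13 counts) at d4, 2.26-fold and 10.4-fold lower. Xlr3c had 207 and 49 counts at d2 and 15 and 3 counts at d4, 3.43-fold (2.50 to 4.78) and 14.4-fold (4.08 to 77.7) lower. Xlr5b was 2.76-fold and 7.21-fold lower, and Xlr4b 2.08-fold and 9.06-fold. In every one of these genes the fold was larger at d4 than at d2 and the level in shLacZ was lower at d4.

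Over the whole cluster (chrX:73074345-73292976, GRCm38), all 11 genes were lower at d2, 9 of them at least 2-fold (1.16% of all genes compared), with a median log2 fold of -1.34 between -1.95 (Xlr5a) and -0.14 (F8a). At d4, 8 of the 11 could be compared and all were lower, 7 at least 2-fold (5.11% of all genes), with a median of -3.18. Of these 8, only Xlr3b and F8a reached 1 CPM in shDIS3L2. The others passed the limit through shLacZ alone, so their direction and the median are no separate support. The genes not compared were Xlr4c (3 and 5 counts, 1.73-fold lower), Xlr5a (5 and 0 counts) and Xlr5c (1 and 0 counts). The 33 genes within 1 Mb on either side had medians of -0.04 at d2 and -0.07 at d4. Summed over the cluster, the shLacZ and shDIS3L2 levels were 136 and 59.2 CPM at d2 and 40.7 and 9.66 CPM at d4, 2.30-fold and 4.21-fold lower. Summed levels were also lower in shDIS3L2 in ESCs (3.19-fold) and from d6 (6.40-fold) to d12 (2.84-fold), including the days on which Dis3l2 had returned to the shLacZ level. Between 40.9% (Xlr3a) and 90.7% (Xlr5b) of the 50-base words of an Xlr transcript occur in another gene of the cluster, so the split of reads among its members is uncertain while their sum is less so.

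The other named genes that were lower on both days lay on several chromosomes. Col6a5, a collagen VI chain, stood at 6.56 and 2.85 CPM at d2 and 2.23 and 0.387 CPM at d4, 2.30-fold and 5.77-fold lower. Scarf2, a scavenger receptor on chromosome 16, had 54 and 11 counts at d2 and 42 and 50 counts at d4, 3.98-fold and 2.42-fold lower. Tal1, the blood stem cell factor, was 2.18-fold and 3.84-fold lower, and Bmp6, a bone morphogenetic protein, 2.73-fold and 2.88-fold; these 2 were picked from the class after their values were seen. The class also held Irf8, Dscam, Dio3, Bgn, Foxq1, Dchs2, Slitrk4, Rassf5, Akap6, Kcnq5 and Arhgap31. Like Scarf2, Dscam and Arhgap31 lie on chromosome 16, and Irf8 lies on chromosome 8, both described below as shifted down. Bgn and Slitrk4 are X-linked, and Bgn lies within 1 Mb of the Xlr cluster. On days that the class did not use, the 6 Xlr cluster genes and the 16 outside the cluster (Dis3l2 left out) are given apart, with no test of the difference. Of the cluster genes, 6 of 6 were at least 2-fold lower in ESCs, at d6 and at d8. At d10 and at d12, 5 of 5 compared were at least 2-fold lower. Xlr3c, left out there, was under 1 CPM in both libraries of each day, with log2 folds of -1.01 at d10 and -0.65 at d12. Outside the cluster, 1 of 3 was at least 2-fold lower in ESCs (10.2% of all genes), 6 of 13 at d6 (8.32%), 3 of 14 at d8 (8.49%), 3 of 14 at d10 (8.65%) and 0 of 15 at d12 (4.37%). On d8, d10 and d12, 6 of those outside the cluster were at least 2-fold higher (11.7%, 14.6% and 13.3% of all genes).

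**Figure D2:**
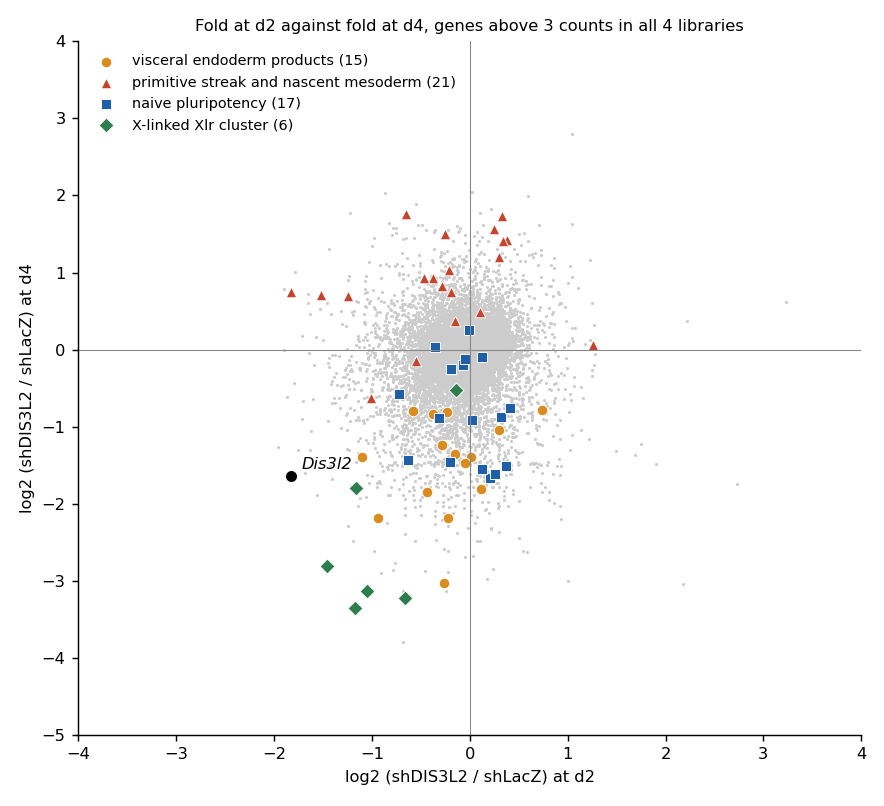
Log2 fold (shDIS3L2 over shLacZ) at d4 against that at d2, 1 point per gene with more than 3 counts in all 4 libraries, with the Xlr cluster, primitive streak, visceral endoderm and naive pluripotency genes coloured. The Xlr genes apart from F8a lie low on both axes, most visceral endoderm and naive genes lie nearer 0 at d2 and low at d4, and most streak genes lie high at d4.

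More genes passed the fold limits at d4 than at d2. At d2, 15 genes were at least 3-fold higher (0.114% of 13171) and 17 at least 3-fold lower (0.129%). At d4 these were 47 (0.361% of 13010) and 219 (1.68%). At the 2-fold limit, 70 (0.531%) and 153 (1.16%) genes were higher and lower at d2, and 205 (1.58%) and 665 (5.11%) at d4. The shLacZ library of d4 was the shallowest of the 14. The interval of the ratio excluded 1 for 39 of the 47 and for all 219, and for all 32 genes of d2. These genes were selected on the same counts, so the intervals are no separate support. A gene 3-fold lower in shDIS3L2 passed 1 CPM only through shLacZ, and its interval then follows largely from the limits. The part of depth and library preparation at d4 was not tested.

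Genes were taken as changed at d4 alone where the fold was at least 3 at d4 and, at d2, the gene was under 1 CPM in both libraries or within 1.5-fold. There were 36 that were higher (0.277% of 13010), of which 25 were under 1 CPM at d2 and 11 within 1.5-fold, and 32 had an interval excluding 1. There were 175 that were lower (1.35%), 82 and 93 of them, and all had an interval excluding 1. These intervals too come from the counts that selected the genes. The class that was higher held several genes of the primitive streak and its mesoderm. Mesp1, the factor of the earliest cardiac and cranial mesoderm, had 2 and 1 counts at d2 and stood at 16.7 CPM (120 counts) and 57.7 CPM (1194 counts) at d4, 3.45-fold higher (2.86 to 4.20; edgeR over both days, adjusted p = 0.0513). Mesp2, a factor of somite segmentation, stood at 1.59 and 2.01 CPM at d2 and 5.85 and 19.6 CPM at d4, 3.35-fold higher (2.43 to 4.71). Fgf3, a growth factor expressed in the streak, was at 1.86 and 1.26 CPM at d2 and 9.89 and 36.5 CPM at d4, 3.69-fold higher (2.89 to 4.78). Wnt2, a ligand of early cardiac mesoderm, was at 3.06 and 11.6 CPM at d4, 3.78-fold higher (2.44 to 6.15). The other 4 named by size were Tceal1 (4.16-fold), Cbln1 (4.11-fold), a synaptic organiser, Amer3 (3.51-fold), a relative of a Wnt regulator, and Grrp1 (3.41-fold).

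The class that was lower at d4 alone had genes with very few reads at its top, and the 8 named are those with the largest folds among genes of at least 5 CPM. Of these 8, Postn, Col3a1, Ccdc80 and Col1a1 encode matrix proteins. Postn, periostin, had 1 and 1 counts at d2 and 42 and 5 counts at d4, 24.2-fold lower (9.60 to 78.4). Col3a1 stood at 0.834 and 0.514 CPM at d2 and 12.3 and 0.870 CPM at d4, 14.1-fold lower (8.42 to 24.9). Col1a1 stood at 1.86 and 1.59 CPM at d2 and 7.94 and 1.06 CPM at d4, 7.47-fold lower (4.50 to 12.8), and Ccdc80, a secreted matrix protein, had 8 and 1 counts at d2 and 41 and 12 counts at d4, 9.85-fold lower. The other 4 were Afp, which is in the class through its level under 1 CPM at d2 and was lower there too (10 and 1 counts), Isg20 (7.96-fold), an RNA exonuclease induced by interferon, Dusp8 (6.44-fold), a phosphatase of stress kinases, and Gm10800 (6.25-fold). The class also held the embryonic globin Hbb-y, with 21 counts against 0 in shDIS3L2 at d4, at least 20.2-fold lower against a floor of 3 counts.

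The direction at d4 was not kept by all genes on later days. At d6, 54 of the 123 d4-lower genes that could be compared were at least 2-fold lower (43.9%, against 8.32% of all genes) and 23 at least 2-fold higher (18.7%, against 6.97%). At d12 these were 42 (28.8%, against 4.37%) and 30 (20.5%, against 13.3%) of 146. At d12 Col3a1 stood at 492.7 CPM with shLacZ and 7939 CPM with shDIS3L2, while Postn at d8 stood at 324 and 2186 CPM. Among genes higher at d4 alone, 11 of 25 were at least 2-fold higher at d6 (6.97% of all genes) and 2 at least 2-fold lower (8.32%). Mesp1 was lower in shDIS3L2 at d6, at 1.28 and 0.0943 CPM.

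By list, the genes of the primitive streak and nascent mesoderm were slightly lower at d2 and higher at d4. At d2, 3 of the 16 compared were at least 2-fold lower (1.16% of all genes) and none higher, with a median log2 fold of -0.27. At d4, 11 of 26 were at least 2-fold higher (1.58% of all genes) and none lower, with a median of 0.88 and summed levels of 1694 (shLacZ) and 3232 CPM (shDIS3L2). Over both days edgeR called 1 of 27 tested higher, Aplnr (0.0281% of all genes tested). Lhx1, a factor of the anterior streak, stood at 4.21 and 2.66 CPM at d2 and 93.5 and 316 CPM at d4, 3.38-fold higher (3.13 to 3.67). Snai1, the repressor that drives cells out of the epithelium, stood at 3.41 and 4.07 CPM and then 28.3 and 83.5 CPM, 2.95-fold higher (2.55 to 3.43). Mixl1, a homeobox gene of the streak, stood at 0.758 and 0.654 CPM and then 161 and 329 CPM, 2.04-fold higher (1.92 to 2.17). Tbx6 (2.83-fold), Dll1 (2.68-fold), Dll3 (2.65-fold), Sp5 (2.30-fold) and Gsc (2.22-fold), the paraxial mesoderm factor, 2 Notch ligands, a Wnt target and the organiser gene goosecoid, lay in the same direction.

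Brachyury (T) and Kdr, which mark the streak and the mesoderm that forms blood vessels, changed sides between the days. T stood at 1.63 CPM (43 counts) and 0.561 CPM (12 counts) at d2, 2.91-fold lower (1.51 to 6.05), and at 486 CPM (3492 counts) and 795 CPM (16461 counts) at d4, 1.64-fold higher (1.576 to 1.696). Kdr stood at 11.5 and 3.22 CPM at d2, 3.56-fold lower (2.735 to 4.697), and at 68.8 and 115 CPM at d4, 1.68-fold higher (1.52 to 1.85). In edgeR over both days neither passed the threshold (adjusted p = 0.699 and 0.905). In both lines T was hardly detected at d2 and strongly expressed at d4. Some signals of the streak were also higher at d4. Among them were the Nodal targets Lefty2 (2.89-fold) and Cer1 (2.73-fold) and the retinoic acid hydroxylase Cyp26a1 (2.53-fold, 63.8 and 161 CPM). Gdf3, a Nodal-related ligand of pluripotent cells, was 3.02-fold lower at d4. The whole lists were mixed at d4, with 8 Nodal genes above 0 and 7 below, and 4 retinoic acid genes above and 5 below. The Wnt and FGF lists had medians of -0.26 and -0.34 at d2 and 0.26 and 0.29 at d4, with 15 of 20 and 12 of 17 genes above 0 at d4.

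Visceral endoderm genes lay the other way at d4. Of 10 compared at d2 none was 2-fold changed (median log2 fold -0.23). At d4 all 17 compared were lower, 13 of them at least 2-fold (5.11% of all genes), with a median of -1.40. Afp (11.8 and 0.966 CPM) passed 1 CPM at d4 through shLacZ alone, and a member that does so can only be lower. The summed levels of the list at d4 were 2129 and 772 CPM. Over both days edgeR called 2 of 16 lower, Afp and Apob (0.0786% of all genes tested). Cubn, the cubilin receptor of the absorptive surface, stood at 80.5 and 59.3 CPM at d2 and 417 and 115 CPM at d4, 3.62-fold lower (3.42 to 3.82). Ttr, transthyretin, stood at 0.644 and 0.701 CPM at d2 and 29.9 and 8.50 CPM at d4, 3.52-fold lower (2.87 to 4.32). Lrp2 and Dab2, the partner receptor of cubilin and its adaptor, were 2.55-fold and 2.76-fold lower, and Apoe 1.75-fold. Of the 6 markers fixed for this cell type, 6 reached 1 CPM in shLacZ at d4 and 5 in shDIS3L2, with summed levels of 478 and 133 CPM. In whole EBs, fewer cells of a type and less RNA per cell cannot be told apart.

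Genes on the list of endoderm factors were below 0 at d2 and on both sides of 0 at d4. The list also holds a hormone gene, Trh, and a receptor gene, Cxcr4. At d2, 12 of 12 were lower (median -0.70), 2 of them at least 2-fold (1.16% of all genes). At d4, 5 were above 0 and 7 below with a median of -0.05. Sox7 (4.10-fold) and Hnf4a (2.35-fold), which act in extraembryonic endoderm, were lower at d4, whereas Cxcr4, a receptor on definitive endoderm and mesoderm, was 2.72-fold higher (13.7 and 37.1 CPM). Gata4, Gata6, Foxa2 and Sox17, shared by both kinds of endoderm, lay within 1.37-fold at d4. Trh was the 1 member called by edgeR. Parietal endoderm matrix genes had a median of -0.13 at d2 and -0.999 at d4. At d4, 5 of 10 were at least 2-fold lower (5.11% of all genes), and Col4a1 was called.

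**Figure D3:**
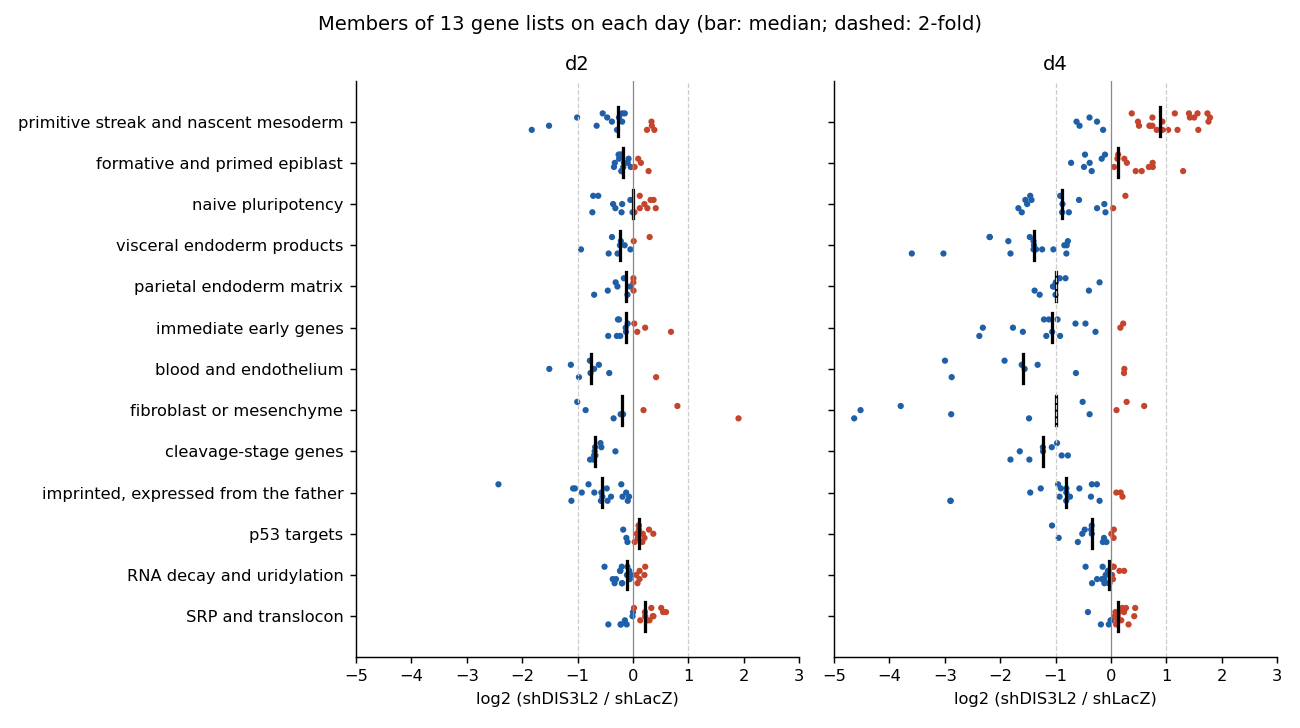
Median log2 fold (shDIS3L2 over shLacZ) of 13 gene lists at d2 and at d4 (bars), with their genes as points. Blood and endothelium (median -1.58), visceral endoderm (-1.40), cleavage-stage (-1.23) and immediate early genes (-1.06) lie low at d4, and primitive streak genes (0.88) lie highest.

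Most naive pluripotency genes were lower at d4. At d2 none of 17 was 2-fold changed (median -0.01). At d4, 14 of 16 were below 0 and 2 above, with a list median of -0.88. Of the 16, 6 were at least 2-fold lower (5.11% of all genes). The 6 were Esrrb (31.9 and 10.0 CPM, 3.19-fold), Zfp42 (48.9 and 15.99 CPM, 3.06-fold), Nr5a2 (2.93-fold), Tcl1 (2.88-fold), Tfcp2l1 (2.75-fold) and Klf2 (2.71-fold), all factors or markers of the ESC state. The core factors of pluripotency stood close in both lines, with Pou5f1 at 740 and 886 CPM, Nanog at 169 and 174 CPM and Sox2 at 35.0 and 32.6 CPM, each within 1.20-fold. The formative and primed epiblast list had medians of -0.19 at d2 and 0.12 at d4, and edgeR called no gene of either list.

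Lists of other embryonic and non-embryonic cells differed in level. At d4 trophoblast genes summed to 726 (shLacZ) and 760 CPM (shDIS3L2), and neuroectoderm genes to 254.6 and 253.7 CPM. The blood and endothelium list had a median of -0.77 at d2 (2 of 9 at least 2-fold lower, 1.16% of all genes). At d4 its median was -1.58 (7 of 10, 5.11% of all genes), which was -0.98 with a minimum of 5 CPM. Its summed levels at d4 differed less, at 102.7 (shLacZ) and 82.0 CPM (shDIS3L2). Members such as Hbb-y, with 21 and 0 counts, passed 1 CPM at d4 through shLacZ alone. The 4 blood markers summed to 0.720 and 0.841 CPM at d2 and 5.02 and 0.483 CPM at d4. Fibroblast or mesenchyme genes had medians of -0.20 and -0.996 (-0.51 at d4 with a minimum of 5 CPM), and their 7 markers, fixed as a check for feeder cells, summed to 21.6 and 23.8 CPM at d2 and 36.6 and 13.2 CPM at d4. Neuroectoderm genes had medians of -0.21 and -0.34, cardiac genes -0.24 and -0.07, trophoblast genes -0.01 and -0.61, and Hox genes 0.32 (3 genes) and -0.37 (9 genes). The smaller sets of fixed markers, 4 neural and 6 trophoblast genes, each summed to at most 13.5 CPM in every one of the 4 libraries. With members under 5 CPM left out, the d4 medians of neuroectoderm, trophoblast, retinoic acid and Hox genes were above 0, so no direction is read from these lists.

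Imprinted genes expressed from the father's copy were lower on both days. At d2, 18 of 18 were below 0 (median -0.56) and 4 at least 2-fold lower (1.16% of all genes). At d4, 16 of 19 were below 0 (median -0.81, and -0.47 with a minimum of 5 CPM) and 4 at least 2-fold lower (5.11%). Their summed level was 1755 and 1158 CPM at d2 and 4220 and 2788 CPM at d4. Of 18 tested, edgeR called 2 lower, Peg10 and Mest (0.0786% of all genes tested). Peg13, a noncoding RNA, had 68 and 10 counts at d2 and 29 and 11 counts at d4, 5.52-fold (2.82 to 12.0) and 7.60-fold (3.69 to 16.9) lower (edgeR adjusted p = 0.0502), and it was lower on each of the other 5 days as well. Kcnq1ot1, the antisense RNA that silences its domain, was 1.90-fold and 1.87-fold lower. Genes expressed from the mother's copy had medians of -0.27 and -0.21, with H19, a noncoding RNA, at 199 and 127 CPM at d2 and 222 and 59.0 CPM at d4 (1.57-fold and 3.75-fold lower), and Phlda2, a growth-limiting gene, 1.52-fold and 1.62-fold higher. Cleavage-stage genes, the Zscan4 family and its companions, were lower for 9 of 9 on both days (medians -0.68 and -1.23), with Zscan4c at 49.7 and 30.5 CPM and at 13.1 and 7.05 CPM. Members of this family are near-identical, so the 9 are not independent. Germline genes held back by DNA methylation had a median of -0.09 at d2, with Rhox5, a homeobox gene, 2.10-fold higher (122 and 256 CPM). At d4 the median of these germline genes was -0.76, with 5 of 14 at least 2-fold lower (5.11% of all genes).

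Immediate early genes, which respond within minutes to signals or handling, differed at d4. At d2 none of 12 was 2-fold changed (median -0.13). At d4, 8 of 15 were at least 2-fold lower (5.11% of all genes), with a median of -1.06. Jun stood at 17.1 and 15.6 CPM at d2 and 75.1 and 14.4 CPM at d4, 5.197-fold lower (4.50 to 6.01), and Egr1 at 14.2 and 16.5 CPM and then 249 and 50.1 CPM, 4.97-fold lower (4.60 to 5.37). For both genes the shLacZ library of d4 stood apart from the other 3. Whether sample handling had a part in the d4 differences was not tested.

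Several lists bear on the exonuclease's own functions and on the processes that the study names. RNA decay and uridylation genes had medians of -0.11 and -0.04 with none of 20 at least 2-fold changed on either day. Genes of the signal recognition particle and translocon had medians of 0.22 and 0.12, again with none of 19 at 2-fold. Structured noncoding RNAs were barely counted in these polyA libraries, with 3 compared at d2 (median 0.43) and 1 at d4 (-1.66). Rmrp, the RNA of an RNA-processing ribonuclease, had 2 and 23 counts at d2, a ratio of 14.2 (3.50 to 124). Its 2 counts in shLacZ lie below the floor of 3. At d4 it had 5 and 3 counts, with the shDIS3L2 library 2.88-fold deeper, so it lay lower in shDIS3L2 there. No direction is read from these few counts. Unfolded protein and integrated stress response genes had medians of -0.09 and 0.10, with Ddit3 and Atf3 2.56-fold and 2.25-fold lower at d4. The calcium genes named by the study, which were chosen on these samples, had medians of -0.31 and 0.01 with none at 2-fold, and ER calcium handling genes -0.26 and 0.06, with Atp2a1, a calcium pump of muscle, 2.34-fold higher at d4. Renal genes of the study had medians of -0.07 and -0.30, with 3 of 9 at least 2-fold lower at d4 (5.11% of all genes). Nephron progenitor genes had medians of -0.06 and 0.39, with 2 of 6 at least 2-fold higher at d4 (1.58%). With a minimum of 5 CPM the d4 median of the renal genes was -0.05. edgeR called no gene of these lists.

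Among metabolic and growth lists, hypoxia and glycolysis genes had medians of 0.11 and 0.13, 14 of 21 and 13 of 20 being above 0, and edgeR called Bnip3. Egln3, an oxygen-sensing hydroxylase induced by low oxygen, was 1.54-fold and 1.81-fold higher (edgeR adjusted p = 0.158). The ACGTG core occurred in 11 of the 20 promoters matched for this list (16.6% of all promoters). The list was drawn up by function, so this share describes the list and not the libraries. The core occurred in 2 of 13 promoters of called coding genes and in 5 of 24 of genes changed on both days. Of genes higher at d4 alone, 2 of 25 held it. Ribosomal protein genes had medians of 0.24 and 0.16, with 71 of 79 and 70 of 78 above 0. Mitochondrially encoded genes had medians of 0.17 and -0.12, cholesterol synthesis genes 0.06 and -0.19 (17 of 18 lower at d4), p53 targets 0.10 and -0.35, cell cycle genes -0.04 and 0.01, histone genes -0.27 and -0.75, BMP genes 0.21 and -0.37, Nodal genes -0.15 and 0.24, retinoic acid genes -0.03 and -0.34, and X inactivation and Y genes -0.28 and -0.66. In none of these lists were more than 3 genes at least 2-fold changed in a direction on a day.

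**Figure D4:**
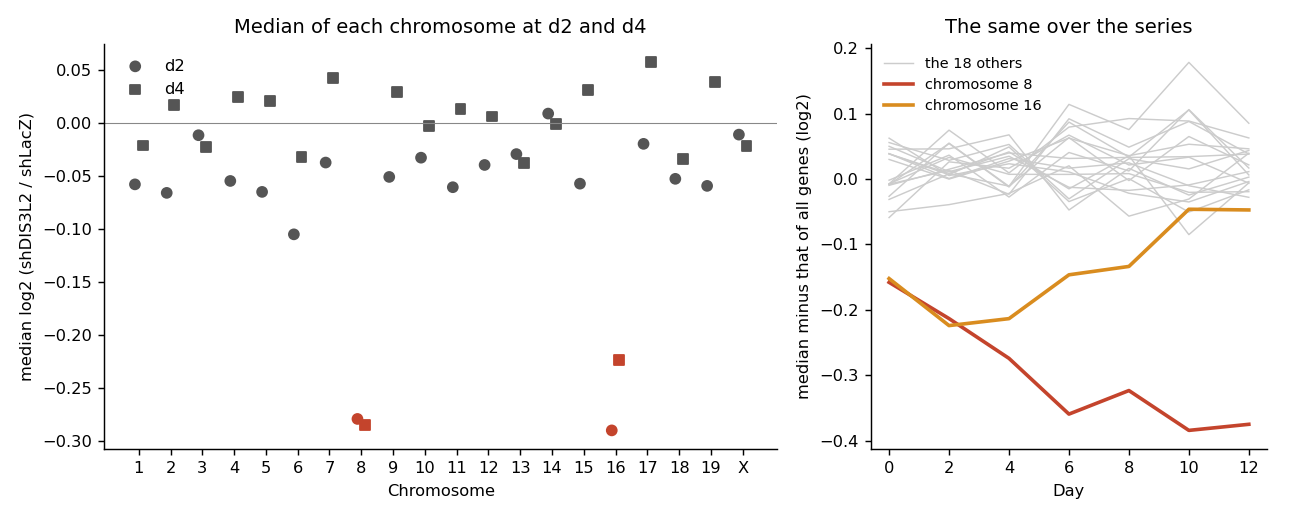
Median log2 fold (shDIS3L2 over shLacZ) of the genes of each chromosome at d2 and d4 (left), and the same less the median of all genes from d0 to d12 (right). On the left, chromosomes 8 and 16 lie between -0.29 and -0.22, below the other 18, which lie between -0.11 and 0.06.

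Genes of chromosomes 8 and 16 were shifted down as whole chromosomes on both days. Chromosome 8 had a median log2 fold of -0.28 at d2 and -0.28 at d4, and chromosome 16 of -0.29 and -0.22, while the other 18 lay between -0.11 and 0.01 at d2 and between -0.04 and 0.06 at d4. Of chromosome 8 genes 82.5% and 84.5% lay below the median of all genes, and of chromosome 16 genes 81.7% and 77.3%. In bins of 20 Mb with at least 20 genes, the medians at d2 lay between -0.35 and -0.20 in the 7 bins of chromosome 8 and between -0.32 and -0.23 in 4 bins of chromosome 16, whose stretch from 60 to 80 Mb held too few genes. At an unadjusted edgeR p under 0.05, 30.4% of chromosome 8 genes and 25.8% of chromosome 16 genes were lower, against 4.30% elsewhere. In ESCs the medians of chromosomes 8 and 16 were -0.47 and -0.47, with the other 18 between -0.37 and -0.25. At d12 the median of chromosome 16 was near 0 and that of chromosome 8 was -0.33. The other 18 lay between 0.02 and 0.13 at d12. Of the called genes, Col4a1 and Exoc3l lie on chromosome 8 and Gm15564 on chromosome 16, and with the chromosome's median subtracted their log2 folds were -0.42, -0.71 and -0.50 at d2 and -1.003, -0.58 and -0.67 at d4. DNA copy number was not measured, and its part in these values was not tested.

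**Figure D5:**
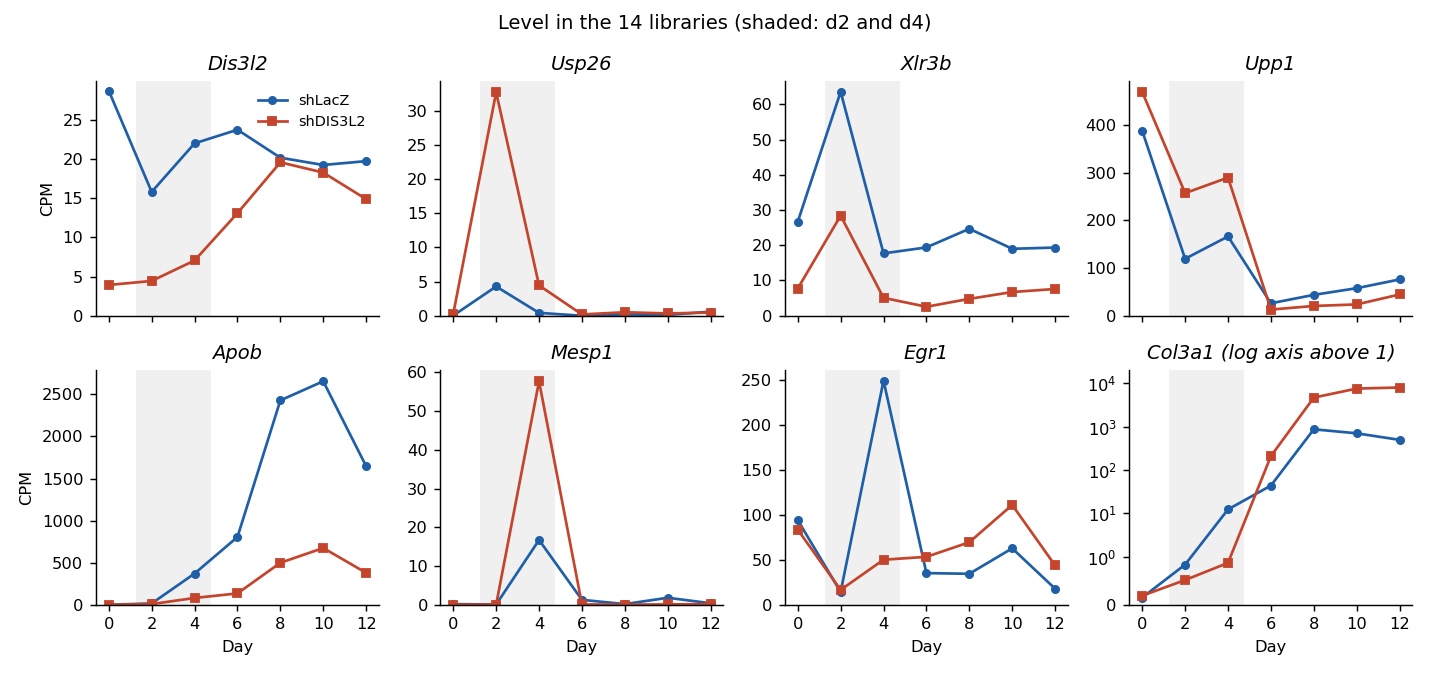
Levels in CPM of selected genes in shLacZ and shDIS3L2 from d0 to d12, 1 library per point, with d2 and d4 shaded and Col3a1 on a log axis above 1. Usp26 peaked at d2 in both lines, Dis3l2 in shDIS3L2 rose to 97.1% of shLacZ at d8, and Col3a1 was lower in shDIS3L2 at d4 and higher from d6 on.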

How the data were processed

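PolyA RNA of 14 EB or ESC libraries, 1 per line and day, was sequenced. Per the labels and the study's methods, the authors aligned reads to GRCm38 with Subread and counted them with featureCounts, and they deposited raw counts per gene (50686 genes) and a CPM table (16181 genes). Strand and multi-mapping settings are not given in the sources used here. The study's own tables head the m5 columns as shDIS3L2. All values were computed from the deposited counts, and the deposited CPM values served only for gene names and types.

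CPM used library totals, with 0.25 counts added for log2 folds. Day folds needed 1 CPM in a library of the day. Intervals are 95% Clopper-Pearson intervals and, like the floor of 3 counts, cover counting error only, since several reads can be PCR copies of 1 molecule. Over d2 and d4, edgeR 4.0.16 (R 4.3.3) with TMM factors, its default filter by line and day as a block was used, with Benjamini-Hochberg adjustment. The SE is the log2 fold over the square root of F. P-values measure the spread between 2 days of 1 line each, not between cultures. DESeq2 1.42.0 was an alternative, with library totals, no filter, no day block and the d0 pair added. The scripts were tested on simulated data.

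The genes named were Dis3l2, the 8 largest changes in each direction among protein-coding genes changed on both days and at d4 alone (5 CPM or more in 1 library), and members of 38 lists. Members, lists and comparisons were chosen with earlier results of these data known. Promoter sequences were read from RefSeq tables. Results for some genes are not reported here.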

Additional observations from a re-analysis of the deposited data

Results flagged for a closer look

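Acta2, smooth muscle actin and a member of the fibroblast or mesenchyme list, differed in opposite directions on the 2 days. At d2 it had 34 counts in shLacZ and 104 in shDIS3L2, a log2 fold of 1.90, and at d4 it had 154 and 159 counts, a log2 fold of -1.48. The difference between the days was not tested, since no library is repeated. In edgeR over both days its log2 fold was -0.01 (adjusted p = 0.999).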

How the results depend on the processing

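The edgeR counts of 5 genes higher and 14 lower became 5 and 17 with library totals, 5 and 20 with DESeq2, 111 and 230 without the filter on low counts, and 0 and 0 both without the day block and with the d0 pair added (20 higher and 28 lower, and 744 and 630, at an unadjusted p under 0.05). Over these fits the adjusted p of Usp26 ran from 5.420e-24 to 0.9999. With a minimum of 5 CPM in place of 1, the genes 3-fold higher and lower became 3 and 4 at d2 and 14 and 61 at d4, those 2-fold higher and lower on both days 0 and 4, and those changed at d4 alone 14 and 54. With no minimum the counts were 130 and 257 at d2, 255 and 423 at d4, and 143 and 282 at d4 alone. The same minimum of 5 CPM turned the list medians of fibroblast genes at d2 (0.0050), neuroectoderm (0.81), trophoblast (0.073), retinoic acid (0.41) and Hox genes (0.57) at d4. It moved 10 other list medians without a change of sign, at d4 among them blood and endothelium (-0.98), fibroblast (-0.51), paternally expressed imprinted (-0.47), renal (-0.05) and cardiac genes (-0.19), and histone genes at d2 (-0.40). Of the values of single genes and lists, 158 kept their direction and size with TMM factors and 157 with size factors, 1 moving. The causes were not tested, beyond the number of genes that each minimum admits. Leaving out a day leaves no residual degrees of freedom, so that alternative gives only the fold of the other day, as reported. The depth of the shLacZ library of d4 limits its low genes, where 3 counts are 0.418 CPM.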

Other observations

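Genes that changed sides between d2 and d4 were few. Of 12398 genes compared on both days, 8 were at least 2-fold changed in opposite directions with both intervals excluding 1. Those named here, apart from Acta2, were picked out by their values. Cxcl10, an interferon-induced chemokine, had 6 and 23 counts at d2 and 15 and 5 counts at d4, 4.73-fold higher and then 8.65-fold lower. Glipr1 had 6 and 34 counts and then 13 and 11 counts, 6.99-fold higher and then 3.41-fold lower. Aoc3, Slc7a9, Slco2a1 and 4933402E13Rik lay the same way as these, 2.03-fold to 2.85-fold higher at d2 and 2.16-fold to 8.29-fold lower at d4.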
